A study of Mus musculus with 6 samples.

Results

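Genes for 10 scavenger and oxidised lipoprotein receptors were followed in primary mouse keratinocytes carrying an active form of the transcription factor NFATc1. The genes were Olr1, Msr1, Cd36, Scarb1, Scarb2, Scara3, Scara5, Stab1, Cd68 and Marco. They were found by symbol among the microarray rows annotated with exactly 1 gene, and all 10 were measured, each by 1 row, among 19935 genes in all. The genes were chosen with the difference between the groups already known, so their differences are given as a description with no test.

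The cells were wild-type keratinocytes from the CD1 strain, kept in a medium low in calcium. In 3 cultures (caNFATc1) a retrovirus encoded human NFATc1 with mutations in its autoinhibitory domain that keep it active, and in 3 cultures (vector control) the same kind of virus was the empty MSCV vector. All 6 cultures therefore carry a retrovirus, and the protein is a viral transgene in cultured cells and not the cells' own NFATc1. The description of the series calls the replicates biological, while the labels do not state that a number marks a shared culture.

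Scavenger receptors are membrane proteins grouped by what they bind and not by common ancestry: they take up modified lipoproteins, dying cells and other altered material. Olr1 encodes LOX-1, a C-type lectin-like receptor best known from vessel walls, where it binds oxidised low-density lipoprotein. Macrophages carry many of the others, and in skin the class B receptors CD36 and SR-BI (encoded by Scarb1) are also known from keratinocytes, which take up lipid for the epidermal barrier. NFATc1 is a factor that the calcium-activated phosphatase calcineurin releases into the nucleus, and it often binds DNA beside the factor AP-1.

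Each value below is a log2 value relative to the median of its row over the 6 arrays. It shows how arrays differ for a gene, while the level of a gene and the order of levels between genes are not known from it. Same-numbered arrays of the groups shared their deviations, with correlations across genes between 0.57 and 0.71, so the differences are also given for the 3 same-numbered pairs. Replicate 1 stood apart in both groups: its values of Xist, the RNA of the inactive X chromosome, were at least 5.97 log2 units below those of the other replicates. The Y-linked gene Eif2s3y was at 3.00 and 3.77 in replicate 1 of vector control and caNFATc1. On the other arrays Eif2s3y lay between -0.08 and 0.01. What sets replicate 1 apart for the receptors was not tested. The known NFAT target Rcan1, which encodes an inhibitor of calcineurin, was higher in caNFATc1 cells by 3.61, 3.12 and 3.40 in the 3 pairs. The row for mouse Nfatc1 differed by 0.12, 0.10 and -0.10, and whether it sees the human transgene was not tested. The markers Krt5 and Krt14 of basal keratinocytes, named after their values had been seen, differed by 0.03 and -0.02 on average. The 15 measured keratinocyte markers differed by between -0.58 and 0.42.

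Olr1 was the member that differed most. Its values were -1.85, -2.01 and -2.06 in vector control replicates 1, 2 and 3, and 1.85, 2.97 and 2.34 in caNFATc1 replicates 1, 2 and 3. The 3 caNFATc1 cultures were all far above the 3 control cultures, which lay close together, and the groups did not overlap. The difference was 3.70, 4.98 and 4.40 in the 3 pairs, with a mean of 4.36 ± 0.64 (SD, n = 3 pairs), a 20.5-fold higher signal. Among the 19935 genes this was the second largest positive difference. Without pair 1 the mean was 4.69.

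The promoter of Olr1 is shown because Olr1 carries the main difference among the receptors, and that of Stab1 because it was lower in caNFATc1 cells in all 3 pairs by similar amounts. Each window runs from 250 bases before to 50 bases after a transcription start in RefSeq (GRCm38.p6, mouse), on the strand of the gene and written 5′ to 3′. Capitals mark GGAAA, the core that NFAT proteins bind and that other factors bind too, read on either strand (TTTCC on the strand shown), and TGANTCA, the AP-1 motif, which reads the same on both strands. The Olr1 window is chr6:129507116-129507415 on the minus strand and the Stab1 window is chr14:31168592-31168891 on the minus strand.
Olr1: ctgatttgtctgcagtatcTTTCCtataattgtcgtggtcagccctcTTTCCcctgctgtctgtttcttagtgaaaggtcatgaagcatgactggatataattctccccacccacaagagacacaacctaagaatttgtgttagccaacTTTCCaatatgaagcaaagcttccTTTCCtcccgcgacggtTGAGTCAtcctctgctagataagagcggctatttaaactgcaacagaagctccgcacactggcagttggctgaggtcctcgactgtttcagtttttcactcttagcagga
Stab1: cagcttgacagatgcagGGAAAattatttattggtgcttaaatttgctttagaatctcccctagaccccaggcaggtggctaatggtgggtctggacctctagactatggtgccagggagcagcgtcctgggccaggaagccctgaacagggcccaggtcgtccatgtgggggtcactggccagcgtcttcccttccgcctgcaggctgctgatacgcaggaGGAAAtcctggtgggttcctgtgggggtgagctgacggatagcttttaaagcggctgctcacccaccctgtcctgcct

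In the Olr1 window GGAAA occurred 4 times, each on the opposite strand, with its first letter on the strand shown 231, 203, 101 and 77 bases before the start. The AP-1 motif occurred once, 60 to 54 bases before the start, and did not overlap the others. Of all 32851 windows of this length, 61.3% held GGAAA at least once, 2.65% at least 4 times and 7.81% the AP-1 motif. Windows with at least 4 GGAAA and the AP-1 motif made up 0.216%. The limit of 4 and this combination are what the Olr1 window itself held, so these shares are a description and no test. A window was given for 6 of the 10 genes. GGAAA occurred 2 times in those of Stab1, Cd68 and Marco, where 26.7% of all windows held at least 2, and once in those of Cd36 and Scarb2. The AP-1 motif occurred 2 times in the Cd68 window and not in the letters of the other 4. These are matches of letters, and binding was not measured.

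**Figure D1:**
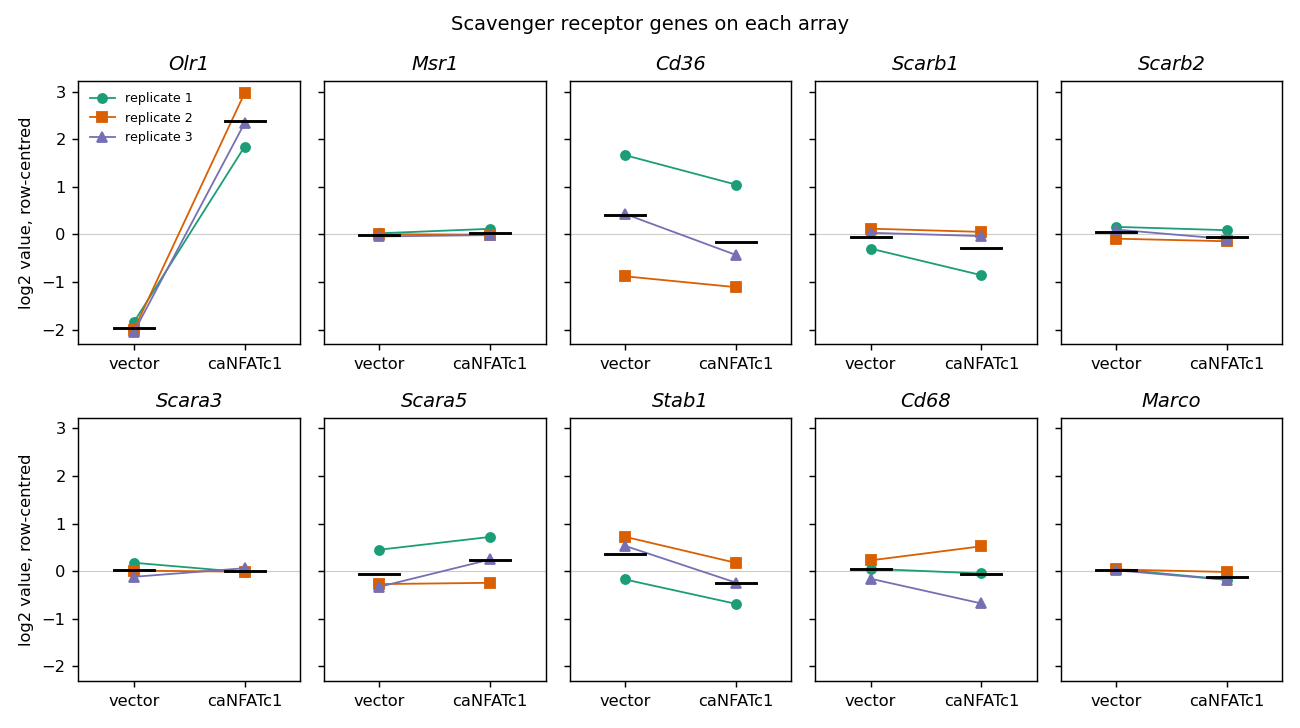
Log2 value of each of the 10 receptor genes on each array, relative to the median of its row, with vector control on the left and caNFATc1 on the right of each panel. Symbols are replicates, thin lines join same-numbered arrays and black bars are group means; Olr1 runs from about -2 to between 1.85 and 2.97, while no other panel shows a comparable step.

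The other 9 receptor genes differed by between -0.61 and 0.29, and 7 of the 10 differences were negative. Of these, Scara3 and Cd68 changed direction between pairs, and the share of negative differences over all genes was not counted. The median difference of the 10 was -0.11, beside -0.01 over all genes. With limma and the Benjamini-Hochberg adjustment over all genes, 1 of the 10, Olr1, had an adjusted p under 0.05 in the fit without the replicate number, beside 0.216% of all genes. With the replicate number as a block in the model the count was 2, Olr1 (higher) and Stab1 (lower), beside 6.11% of all genes, 3.73% higher and 2.38% lower. The choice of members used this contrast, so nothing is read from either count. The first count was 0 when vector control replicate 1, 2 or 3 or caNFATc1 replicate 3 was left out, and 1 without caNFATc1 replicate 1 or 2. The count with the block was 2, 3 and 2 without pair 1, 2 or 3, and the member added without pair 2 was Cd36. For 2 of the 10, Olr1 and Marco, the groups were apart, beside 18.7% of all genes.

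**Figure D2:**
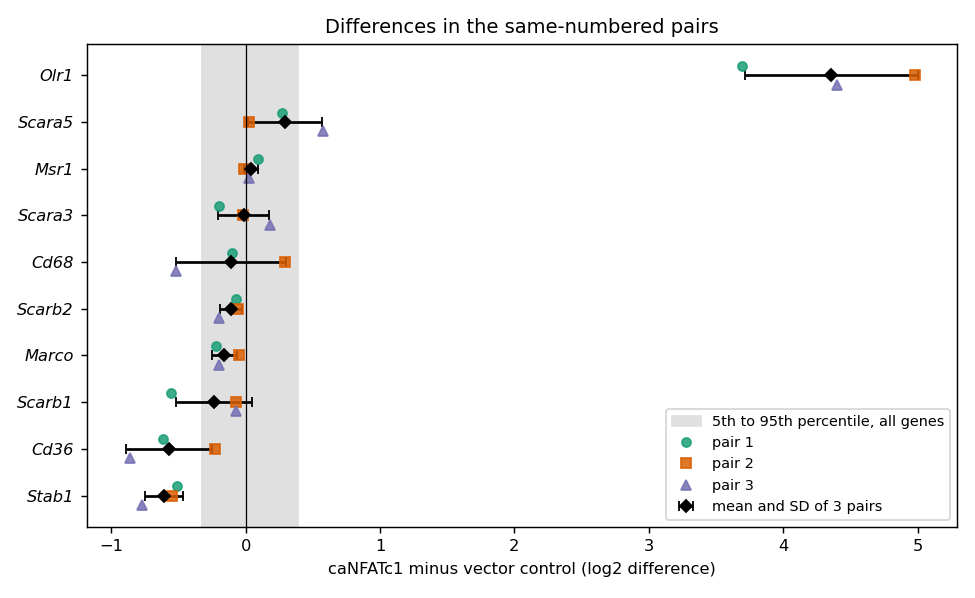
Log2 difference, caNFATc1 minus vector control, of the 10 receptor genes, with a coloured symbol for each same-numbered pair and a diamond with bars for the mean and SD of the 3 pairs. The grey band spans the 5th to the 95th percentile of the mean differences of all 19935 genes, -0.33 to 0.39; Olr1 lies far to its right at 4.36, and Cd36 and Stab1 lie to its left at -0.57 and -0.61.

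The class B receptors share a fold that spans the membrane at each end. Cd36 encodes a receptor for oxidised lipoprotein, long-chain fatty acids and thrombospondin. Its values were 1.67, -0.88 and 0.43 in the vector control cultures and 1.05, -1.11 and -0.43 in the caNFATc1 cultures. Replicate 1 was highest and replicate 2 lowest in each group, so the groups overlapped widely. Within pairs Cd36 was lower in caNFATc1 cells by 0.62, 0.23 and 0.86 log2 units (mean difference -0.57 ± 0.32, SD, n = 3 pairs). The control cultures spanned 2.55 log2 units, more than any difference between the arrays of a pair. The SD of the control cultures, 1.27, lay at the 99.8th percentile of all genes, whose median SD was 0.10. After quantile normalization between arrays, run on the row-centred values, the mean difference was -1.03. Whether this shift reflects Cd36 or that step was not tested.

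Scarb1 encodes SR-BI, the receptor through which cells take up cholesterol ester from high-density lipoprotein. Its values were -0.30, 0.12 and 0.03 in control cultures and -0.86, 0.05 and -0.03 in caNFATc1 cultures. It was lowest on the replicate 1 arrays, and outside them the 4 values lay within 0.16 log2 units of each other. The pair differences were -0.56, -0.07 and -0.07, so the mean of -0.23 rested on pair 1 and was -0.07 without it. Scarb2 encodes LIMP-2, a lysosomal membrane protein that carries the enzyme glucocerebrosidase to lysosomes. Its values were 0.16, -0.09 and 0.10 in control cultures and 0.09, -0.14 and -0.10 in caNFATc1 cultures. The groups overlapped, and the pair differences were -0.07, -0.05 and -0.20.

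The class A receptors form collagen-like or coiled trimers. Msr1 and Marco, known as macrophage receptors for modified lipoprotein and bacteria, varied little on any array. The 6 values of Msr1 lay between -0.042 and 0.118, and its pair differences were 0.09, -0.01 and 0.03. Those of Marco were 0.042, 0.035 and 0.017 in control cultures and -0.178, -0.017 and -0.183 in caNFATc1 cultures. Every caNFATc1 array was below every control array for Marco, by a mean of -0.16 ± 0.09 (SD, n = 3 pairs). The SD of its control cultures, 0.012, was at the 1.77th percentile of all genes.

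Scara3, a class A protein linked to protection from oxidative stress, had values of 0.18, 0.01 and -0.12 in control cultures and -0.02, -0.01 and 0.06 in caNFATc1 cultures. Its pair differences were -0.20, -0.02 and 0.18 and so changed direction between pairs. Scara5, a ferritin receptor, had values of 0.45, -0.27 and -0.33 in control cultures and 0.72, -0.25 and 0.25 in caNFATc1 cultures. Its pair differences were 0.27, 0.03 and 0.57, all positive, with a mean of 0.29 ± 0.27 (SD, n = 3 pairs). Replicate 1 was the highest array of each group for Scara5, and the spread over the control cultures was 0.78.

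Stab1 encodes stabilin-1, a large endocytic receptor of macrophages and sinusoidal endothelium that clears modified proteins. Its values were -0.17, 0.72 and 0.53 in control cultures and -0.69, 0.17 and -0.24 in caNFATc1 cultures. The groups overlapped in 1 place: the replicate 1 control lay below caNFATc1 replicate 2. Within pairs the difference was -0.51, -0.55 and -0.77, with a mean of -0.61 ± 0.14 (SD, n = 3 pairs), and the SD was the smallest relative to its mean difference among the 9 members other than Olr1. Cd68 encodes macrosialin, a glycoprotein of late endosomes and lysosomes used as a macrophage marker. Its values were 0.05, 0.23 and -0.16 in control cultures and -0.05, 0.52 and -0.68 in caNFATc1 cultures. Its pair differences of -0.10, 0.30 and -0.52 changed direction, and its values were more spread in caNFATc1 cultures (SD 0.60) than in control cultures (SD 0.19).

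**Figure D3:**
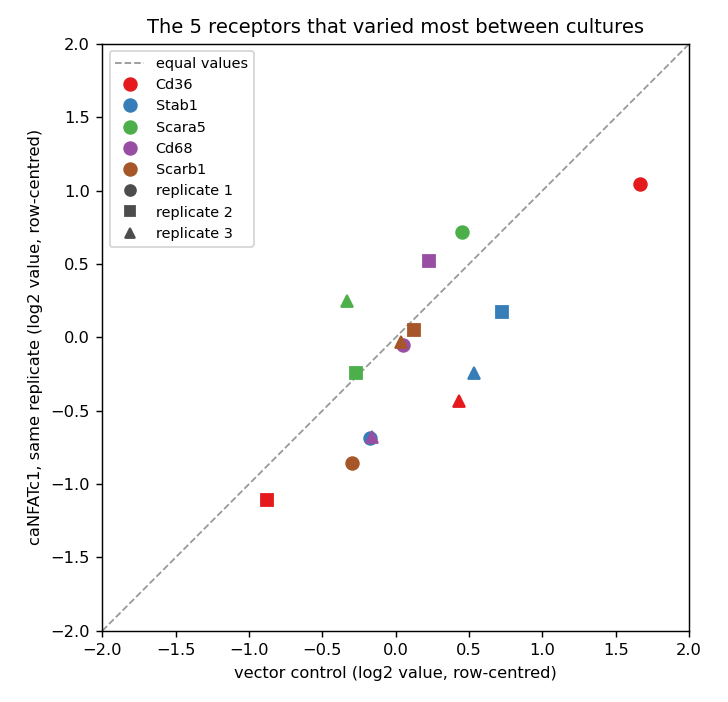
Log2 value in the caNFATc1 culture against that in the vector control culture of the same replicate number, for the 5 receptor genes with the largest SD over the control cultures. Colours are genes, symbols are replicates and the dashed line marks equal values. The Cd36 points run from -0.88 to 1.67 on the control axis. All points of Cd36, Stab1 and Scarb1 lie below the line, all points of Scara5 lie above it, and those of Cd68 lie on both sides.

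Over the 10 genes, 2 were higher in all 3 pairs (Olr1 and Scara5), 5 were lower in all 3 (Cd36, Scarb1, Scarb2, Stab1 and Marco), and 3 changed direction between pairs. Over all genes 21.6% were higher and 21.3% lower in all 3 pairs. The genes lie on 6 chromosomes, with Cd36, Scarb1 and Scarb2 on chromosome 5, Scara3, Scara5 and Stab1 on chromosome 14, and Olr1, Msr1, Cd68 and Marco on chromosomes 6, 8, 11 and 1.

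Olr1 lies in a run of genes for C-type lectin-like receptors of immune cells. Of its 20 nearest protein-coding neighbours, 10 on each side in the RefSeq gene order, all were measured. Gabarapl1, which encodes an autophagy protein of the ATG8 family and lies 2 genes away, was lower in the 3 control cultures (-0.76, -0.32 and -0.38) than in the 3 caNFATc1 cultures (0.35, 0.32 and 0.41). It rose by 0.85 ± 0.10 (SE with the replicate block, limma adjusted p = 0.0158, n = 3 pairs) and did not pass without the block (0.0647). The genes on either side of Olr1 were Clec7a, the beta-glucan receptor dectin-1, and Tmem52b. They differed by 0.07 ± 0.09 and -0.08 ± 0.07 (SE with the block, adjusted p = 0.769 and 0.610). Apart from Gabarapl1, the neighbours differed by between -0.20 (Clec2e) and 0.25 (Clec2d) and passed neither fit. The neighbours were looked up after the values had been seen. Of 19 measured genes in a list of these lectins and their neighbours, Gabarapl1 was the 1 that rose with the block. In that list 3 genes had an unadjusted p under 0.05 in each fit, Clec2h differed by 0.19 without passing, and the median difference was 0.02.

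**Figure D4:**
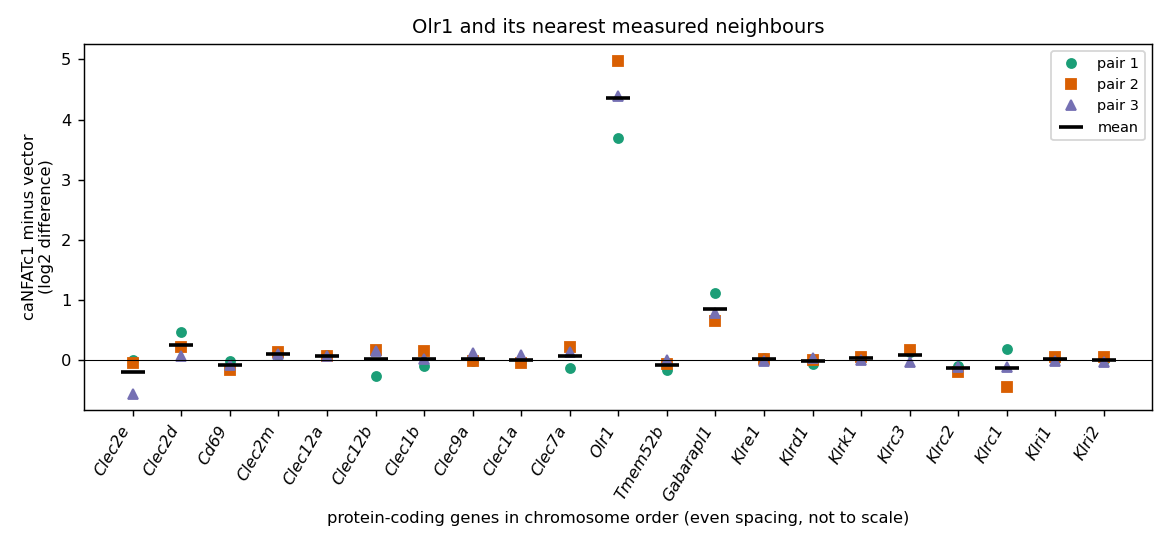
Log2 difference, caNFATc1 minus vector control, of Olr1 and the 10 protein-coding genes on each side of it, in chromosome order with even spacing. Symbols are the 3 same-numbered pairs and bars their means; Olr1 stands at 4.36 and Gabarapl1 at 0.85, while the other means lie between -0.20 and 0.25.

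The genes whose 6 values were most like those of Olr1 were Atp1b1, Postn, Fmod, Rcan1 and Egfl6, with a root mean square distance of 0.55, 0.61, 0.62, 0.73 and 0.73 log2 units over the 6 arrays after centring each gene on its mean. In that order they ranked 5, 4, 1, 6 and 3 among the positive differences of all genes, where Olr1 ranked 2. The distance is small only for genes with a group difference of similar size, so the list is no separate sign of likeness. Atp1b1 encodes a subunit of the sodium-potassium pump, Postn the matrix protein periostin and Fmod the proteoglycan fibromodulin. The order of the 3 caNFATc1 cultures differed among them: replicate 2 was the highest for Olr1 and the lowest for Atp1b1, Postn, Fmod and Rcan1.

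Genes around the receptors were taken from 7 lists of uptake, handling and signalling. Other scavenger receptors did not pass in either fit (0 of 21 with limma, 1 at an unadjusted p under 0.05 without the block and 2 with it), and their median difference was 0.00. The share of the 19935 genes below that unadjusted limit was 12.7% without the block and 21.5% with it, and the counts of each list are to be read beside these shares. Among them, Cxcl16, a membrane-bound chemokine that also binds oxidised lipoprotein, had values of -1.07, 0.16 and -0.16 in control cultures and -0.43, 0.29 and 0.73 in caNFATc1 cultures. Its groups overlapped, and it differed by 0.55 ± 0.15 (SE with the block, adjusted p = 0.0953). Asgr2, Ssc5d and Megf10 had differences of -0.20, 0.20 and -0.12, none of them called.

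Of 22 measured genes of the lipoprotein receptor family and its adaptors, 1 rose and none fell in each fit (3 at an unadjusted p under 0.05 without the block and 7 with it). It was Lrp12, a membrane protein of the lipoprotein receptor family. Its values were -0.37, -0.68 and -0.47 in control cultures and 0.51, 0.37 and 0.61 in caNFATc1 cultures, without overlap. It rose by 1.00 ± 0.11 (SE, limma adjusted p = 0.0434, and 0.00604 with the block). Without the block its adjusted p lay between 0.0530 and 0.165 when any 1 array was left out. Lrp8, the reelin receptor ApoER2, Lrp11 and the adaptor gene Dab2 had differences of -0.54, -0.38 and 0.43, none of them called (adjusted p = 0.0689, 0.125 and 0.0918 with the block). Over the 22 genes the differences had a median of 0.00.

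Fatty acid uptake and carrier genes, which act beside Cd36, had 1 of 27 lowered with the block and none called without it (6 at an unadjusted p under 0.05 without the block and 9 with it). That gene was Fabp5, the epidermal fatty acid binding protein. Its values were 0.31, 0.72 and 1.00 in control cultures and -0.91, -0.31 and -0.50 in caNFATc1 cultures, without overlap. It fell by 1.26 ± 0.10 (SE with the block, adjusted p = 0.00605, and 0.0974 without). The lipase gene Lipg, Pparg, a nuclear receptor that regulates Cd36 in macrophages and fat, and Thbs1, which encodes the CD36 ligand thrombospondin 1, differed by 0.69, 0.38 and 0.99. None of these was called (adjusted p = 0.0555, 0.0678 and 0.0986 with the block). In cholesterol efflux and storage, 0 of 20 genes passed either fit (3 at an unadjusted p under 0.05 without the block and 4 with it). Npc2, Stard3, Osbp and Lipa, which move or release cholesterol within cells, differed by 0.30, 0.31, 0.16 and 0.24.

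Among 27 genes known from LOX-1 signalling and shedding, 1 rose with the block and none was called without it (2 at an unadjusted p under 0.05 without the block and 7 with it). Bace1, a protease that can cut LOX-1, rose by 0.43 ± 0.08 (SE with the block, adjusted p = 0.0431, and 0.584 without), by 0.33, 0.60 and 0.34 in the 3 pairs, with overlapping groups. Arg2, which encodes the arginase that LOX-1 is known to activate in endothelium, had values of -0.79, -0.27 and -0.28 in control cultures and 3.31, 0.27 and 2.24 in caNFATc1 cultures. Every caNFATc1 array was higher, but by 4.10, 0.54 and 2.52 in the 3 pairs, and the gene was not called (adjusted p = 0.0870 with the block). Mmp14 and Hspa1a differed by 0.38 and -0.29 without passing. Replicate 2, where Olr1 differed most, was the pair where Arg2 differed least. Rcan1, Atp1b1 and Fmod also differed least in that pair, while Postn and Egfl6 did not. A link between Olr1 and Arg2 was not tested.

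Lysosomal membrane genes and partners of Scarb2 had 21 of 25 positive differences and a median of 0.16, beside a median of -0.01 over all genes. The median of the list was 0.05, 0.23 and 0.08 in pairs 1, 2 and 3. The share of positive differences over all genes was not counted. Of the 25 genes, 1 rose in each fit (2 at an unadjusted p under 0.05 without the block and 7 with it). It was Tmem192, a lysosomal membrane protein, with values of -0.27, -0.23 and -0.28 in control cultures and 0.29, 0.27 and 0.23 in caNFATc1 cultures. It rose by 0.52 ± 0.05 (SE, limma adjusted p = 0.0368, and 0.0158 with the block). Without the block its adjusted p lay between 0.0752 and 0.199 when any 1 array was left out. Tmem106b, the tetraspanin gene Cd82 and the amino acid sensor gene Slc38a9 differed by 0.29, 0.62 and 0.21 without passing. Scarb2 and Cd68, the members of lysosomes among the 10 receptors, had mean differences of -0.11 each.

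**Figure D5:**
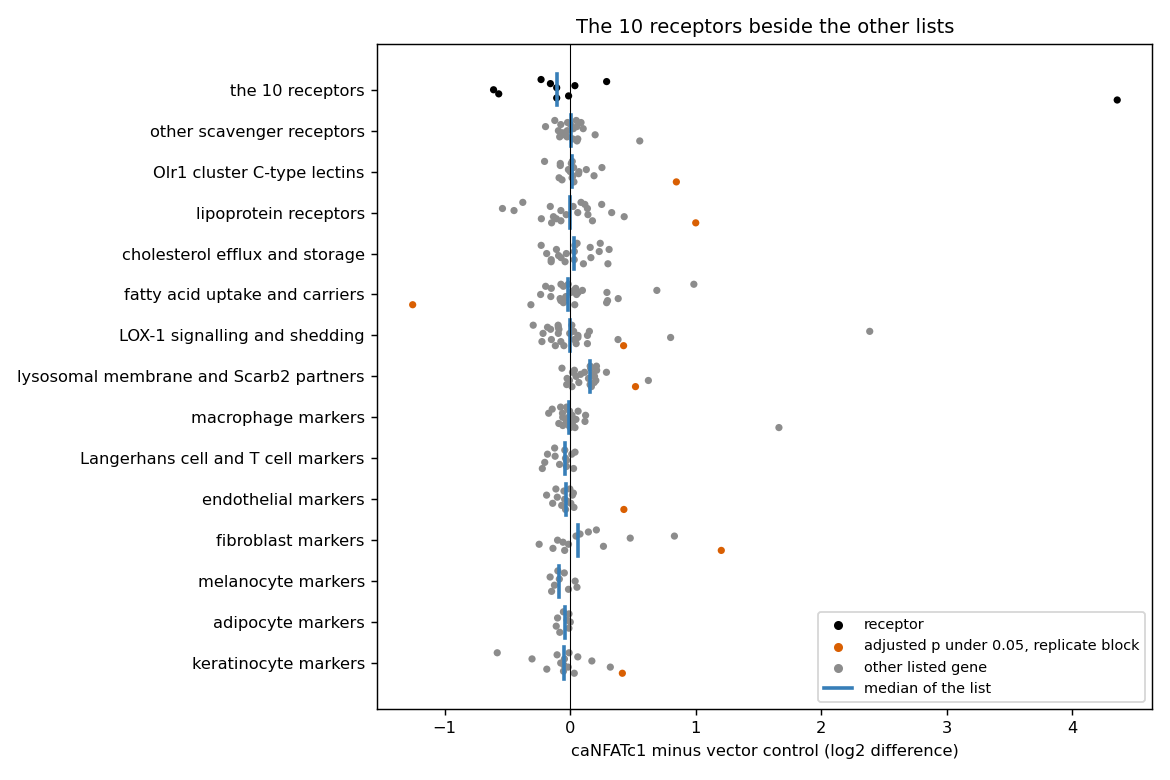
Log2 difference, caNFATc1 minus vector control, of the 10 receptors and of every measured gene in 14 other lists, 1 point per gene, with a blue bar at the median of each list. Orange points passed limma with the replicate block; Olr1 lies at 4.36, apart from all listed genes, of which the highest is Arg2 at 2.39.

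Several of the receptors are markers of macrophages or endothelium, so markers of other cells were set beside them. In bulk RNA, fewer cells of a type and less RNA per cell cannot be told apart. Of 23 macrophage markers 0 passed either fit (1 at an unadjusted p under 0.05 in each), and the mean of the list lay between -0.03 and 0.04 in control arrays and between 0.04 and 0.07 in caNFATc1 arrays. The list had 10 positive and 13 negative differences, a median of -0.01, and medians of -0.11, 0.01 and 0.07 in pairs 1, 2 and 3. The largest difference in it was that of Mertk, a receptor for dying cells, with values of -0.26, -0.24 and -0.13 in control cultures and 2.91, 0.13 and 1.31 in caNFATc1 cultures. Mertk was higher in every caNFATc1 culture, by 3.18, 0.37 and 1.44 in the pairs, and was not called (adjusted p = 0.117 with the block). The higher list means in caNFATc1 arrays include Mertk, and means without it were not computed. Tyrobp and C1qa differed by -0.17 and 0.12. Of 15 endothelial markers, Esam rose with the block (0.43 ± 0.07, adjusted p = 0.0318, and 0.315 without), while Flt4 and Cldn5 differed by -0.19 and -0.14. The endothelial list's mean lay between -0.03 and 0.01 in control arrays and between -0.13 and 0.04 in caNFATc1 arrays.

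Of 14 fibroblast markers, Col3a1 rose with the block (1.20 ± 0.19, adjusted p = 0.0296, and 0.108 without), and Pdgfra and Col6a3 differed by 0.83 and -0.25. The mean of the fibroblast list lay between -0.18 and -0.03 in control arrays, and was -0.22, 0.05 and 0.48 in caNFATc1 replicates 1, 2 and 3. That list holds Vim, with values of -2.98 and -2.92 in vector control and caNFATc1 replicate 1. The replicate 1 means therefore rest in part on Vim, and means without it were not computed. Langerhans and T cell markers (13 measured), melanocyte markers (9) and adipocyte markers (8) did not pass in either fit, with 1, 0 and 0 at an unadjusted p under 0.05 without the block and 2, 0 and 0 with it. H2-Ab1, Cd28 and Cd3e of immune cells differed by -0.22, -0.18 and -0.20. Sox10, Slc45a2 and Mlana of melanocytes differed by -0.15, -0.16 and -0.13, and Retn, Plin1 and Lep of adipocytes by -0.08, -0.10 and -0.11. Of 15 keratinocyte markers Trp63, a factor of basal keratinocytes, rose with the block (0.42 ± 0.08, adjusted p = 0.0444, and 0.322 without). The desmosome genes Dsc3 and Dsp differed by -0.30 and 0.32 without passing, and the keratinocyte list's median was -0.05. The endothelial, fibroblast and keratinocyte lists held 1, 2 and 1 genes at an unadjusted p under 0.05 without the block and 2, 2 and 4 with it. Since levels are not known from row-centred values, which markers were at background could not be given, and the part of other cells in the receptor differences was not tested.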

How the data were processed

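Total RNA of 6 cultures, 3 per group, was labelled as biotinylated cDNA and hybridised to single-colour microarrays. The deposited table holds log2 values for 28815 rows and 6 arrays. Per the submitters' processing notes the authors used RMA, with mm8 as the genome build; software, version and filters: not given in the sources used here. Each row had a median of 0 over the arrays (to 1e-06): the authors had centred it, so no row could be called dim, and the base 2 was taken from the use of RMA.

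The platform annotation gave 21780 rows 1 symbol and 1605 rows several, and 5430 rows were not listed. Rows of 1 gene were averaged, giving 19935 genes, of which 998 had several rows. Groups and replicate numbers come from the sample titles. Limma (version 3.58.1, R 4.3.3; lmFit and eBayes, 2-sided, Benjamini-Hochberg adjusted p under 0.05 over all genes) was run with group as the only term and, as an alternative, with the replicate number as a block. The fit was tested on simulated data built with replicate effects and independent noise. That simulation cannot show whether the replicate numbers mark pairs. Same-numbered arrays correlated at 0.71, 0.61 and 0.57 in their deviations from the group means, and the 6 other pairings at -0.60 to 0.18. Deviations from a group mean cancel within the group, so positive same-numbered values make the other pairings negative on average. Part of this contrast was therefore fixed in advance. Each same-numbered value passed the limit of 0.1, and the numbers were treated as pairs. The highest of the other pairings, 0.18, passed it too, so the limit alone did not separate the pairings. The p-values reflect only the spread among these cultures, and the number of arrays limits the precision.

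The members and the 14 other lists (274 genes, 253 measured) were chosen with earlier results of these data known. Named were the 10 receptors, in each list the 4 genes (3 for marker lists) with the lowest p with the block, and the 5 genes nearest to Olr1, without predicted genes or clone names. Tmem52b, Clec7a, Krt5, Krt14, Nfatc1, Vim, Xist and Eif2s3y were named after their values had been seen. Alternatives were the block, leaving out arrays and pairs, quantile normalization, the median of rows, rows with several symbols, a robust prior and a size limit. Promoter windows are RefSeq's.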

Additional observations from a re-analysis of the deposited data

How the results depend on the processing

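The number of genes called by limma depended on the treatment of the replicate number and on single arrays. Without the block 43 genes were called, 41 higher and 2 lower, and with the replicate block 1219, 744 higher and 475 lower, among them all 43. Of the receptors 1 and 2 were called. Leaving out 1 array without the block gave 0 to 83 genes and 0 to 1 receptors, with 2113 genes at an unadjusted p under 0.05 in the setting with 0 genes (without vector control replicate 3). Leaving out a pair with the replicate block gave 711, 743 and 1086 genes and 2, 3 and 2 receptors. Quantile normalization, run on the row-centred values, called 169 genes, 149 higher and 20 lower, and 1 receptor. The median of rows, rows with several symbols, the robust prior and the limit of 1 log2 unit gave 43, 42, 42 and 30 genes and 1 receptor each.

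The difference of Olr1 lay between 3.99 and 4.69 over 13 alternatives. Those of Scarb2, Scara5, Stab1 and Marco kept their sign in all 13, while Cd36, Scarb1, Msr1, Cd68 and Scara3 changed sign in 1, 1, 1, 2 and 4. Cd36 ranged from -1.21 to 0.06, with both ends in settings that leave out 1 control array and so break a pair. Stab1 ranged from -0.88 to -0.39. Since each receptor has 1 row, agreement between rows could not be examined, and background correction and a filter on dim rows were not run on row-centred values.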

Other observations

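Single genes outside the receptor list also differed by culture far more than by virus. Vim, the intermediate filament gene vimentin of mesenchymal cells, had values of -2.98 and -2.92 in vector control and caNFATc1 replicate 1, and between -0.03 and 0.79 on the other 4 arrays. Dsp, the desmosome gene desmoplakin, had values of -2.78 and -2.58 in replicate 3 of the groups, and between -0.11 and 0.99 elsewhere. Among the receptors, Cd36 had the widest spread of this kind, from 1.67 to -0.88 over the control cultures. These values were noticed in the data and were not tested.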
